A study of Mus musculus with 2 samples.

Results

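A set of 46 genes for cyclins, their kinases and the machinery of mitosis was compared between *Plzf* lu/lu (luxoid) embryos and wild type embryos in the developing brain. The genes were taken by name from the 37074 gene names on the array, and all 46 were found. None of the 43 genes with enough signal to be tested was upregulated or downregulated more than 1.3-fold on both arrays. The mean change ran from a 1.34-fold increase for *Ttk*, a spindle checkpoint kinase, to a ratio of 0.715 for *Cdk1*, the kinase that drives cells into mitosis. The highest ratios belonged to *Ttk*, *Cenpf*, *Ect2*, *Top2a* and *Cenpe*, and *Cdk1* stood apart as the lowest. These values are those of the brightest probe. Another probe of *Ttk* and of *Ect2* with enough signal was slightly lower in *Plzf* lu/lu by the mean of the arrays.

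Cells pass from G1 through S phase and G2 into mitosis as cyclins appear in turn and activate cyclin-dependent kinases. D-type and E-type cyclins act in G1, cyclin A2 acts in S phase and G2, and the B-type cyclins act with Cdk1 in mitosis, after which the anaphase-promoting complex marks them for degradation. Many mitotic genes are transcribed mainly in late S phase and G2, so their transcripts are widely used to follow dividing cells, and in the early embryonic brain these are chiefly the neuroepithelial progenitors of the ventricular zone.

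RNA came from the forebrain and midbrain of E10.5 embryos per the methods, while the sample labels name only the brain. Wild type embryos were labeled as C57BL/6, the mutants as luxoid, a spontaneous mutation of *Plzf* (also called *Zbtb16*) that truncates the protein in every cell of the animal, and no other allele or treatment was named for either group. On each of 2 Agilent SurePrint G3 mouse arrays, described as biological replicates, a wild type sample labeled with Cy3 was hybridized together with a *Plzf* lu/lu sample labeled with Cy5. The dyes were not swapped, so a dye effect on a probe cannot be told apart from genotype, and the number of embryos behind each sample was not given in the sources used here. The study followed dividing cells in this tissue by staining and flow cytometry, and the arrays give the transcripts of the same machinery. Because whole tissue was used, fewer dividing cells and less RNA per dividing cell cannot be told apart.

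Each value below is the processed signal of the brightest probe of a gene, or the log2 ratio of that probe, taken as *Plzf* lu/lu over wild type throughout. A gene was tested when its processed signal was above 200 and its signal-to-noise ratio 5 or more in all 4 channels, which left 10600 genes, and no gene spot was saturated. The number of gene spots well above background was 36936 in wild type and 43546 in *Plzf* lu/lu on array 1, and 44100 and 44318 on array 2. *Zbtb16*, the mutated gene, was probed at chr9:48462419-48462478 (mm9) and had a processed signal of 433 and 546 in wild type and of 172 and 211 in *Plzf* lu/lu, on arrays 1 and 2. Its log2 ratios were -1.33 and -1.37 at this probe, the brighter of 2. With a signal of 172 in *Plzf* lu/lu on array 1, *Zbtb16* failed the filter and was not among the genes tested. The progenitor markers *Sox2*, *Nes* and *Pax6* and the neuronal marker *Tubb3* passed the signal filter in all channels.

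Of the 10600 genes tested, 274 (2.58%) were higher and 78 (0.736%) were lower in *Plzf* lu/lu by more than 1.3-fold on both arrays, and the cyclins and mitotic genes gave 0 in each direction. At an adjusted p under 0.05 in limma, 3 of all genes (0.0283%) and 0 of the 43 were called, and the lowest adjusted p among the 43 was 0.0652 for *Cenpf*. At an unadjusted p under 0.05, 7 of the 43 were higher and 1 was lower, against 15.7% and 12% of all genes in these directions. The sign was positive on both arrays for 15 of the 43 and negative on both for 13, against 37.3% and 35.4% of all genes. Overlap of the genotypes compares signals across arrays that were not normalized to each other, so it also depends on the brightness of each array. The signals did not overlap over both arrays for 14 genes higher and 9 lower in *Plzf* lu/lu, against 30.5% and 26.3% of all genes. These shares lie near the background, apart from the 1 of 43 genes that was lower at an unadjusted p under 0.05, a difference that was not tested.

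Over the 43 genes the log2 ratio had a median of 0.032, against 0.0067 for all genes tested, with 0.025 on array 1 and -0.020 on array 2. The 95% interval from limma had a median reach of 0.195 to either side of the mean, on the log2 scale. It lay wholly inside 1.3-fold in both directions for 32 of the 43 genes (74.4%) and inside 1.5-fold for 40 (93.0%), against 62.3% and 91.0% of all genes. For the other 11 genes a change of 1.3-fold was thus not excluded by the interval. Across these genes, which are not independent replicates and share the same 2 arrays, array 1 and array 2 correlated with a Pearson r of 0.669 and a Spearman rho of 0.595, against 0.553 and 0.601 across all genes.

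**Figure D1:**
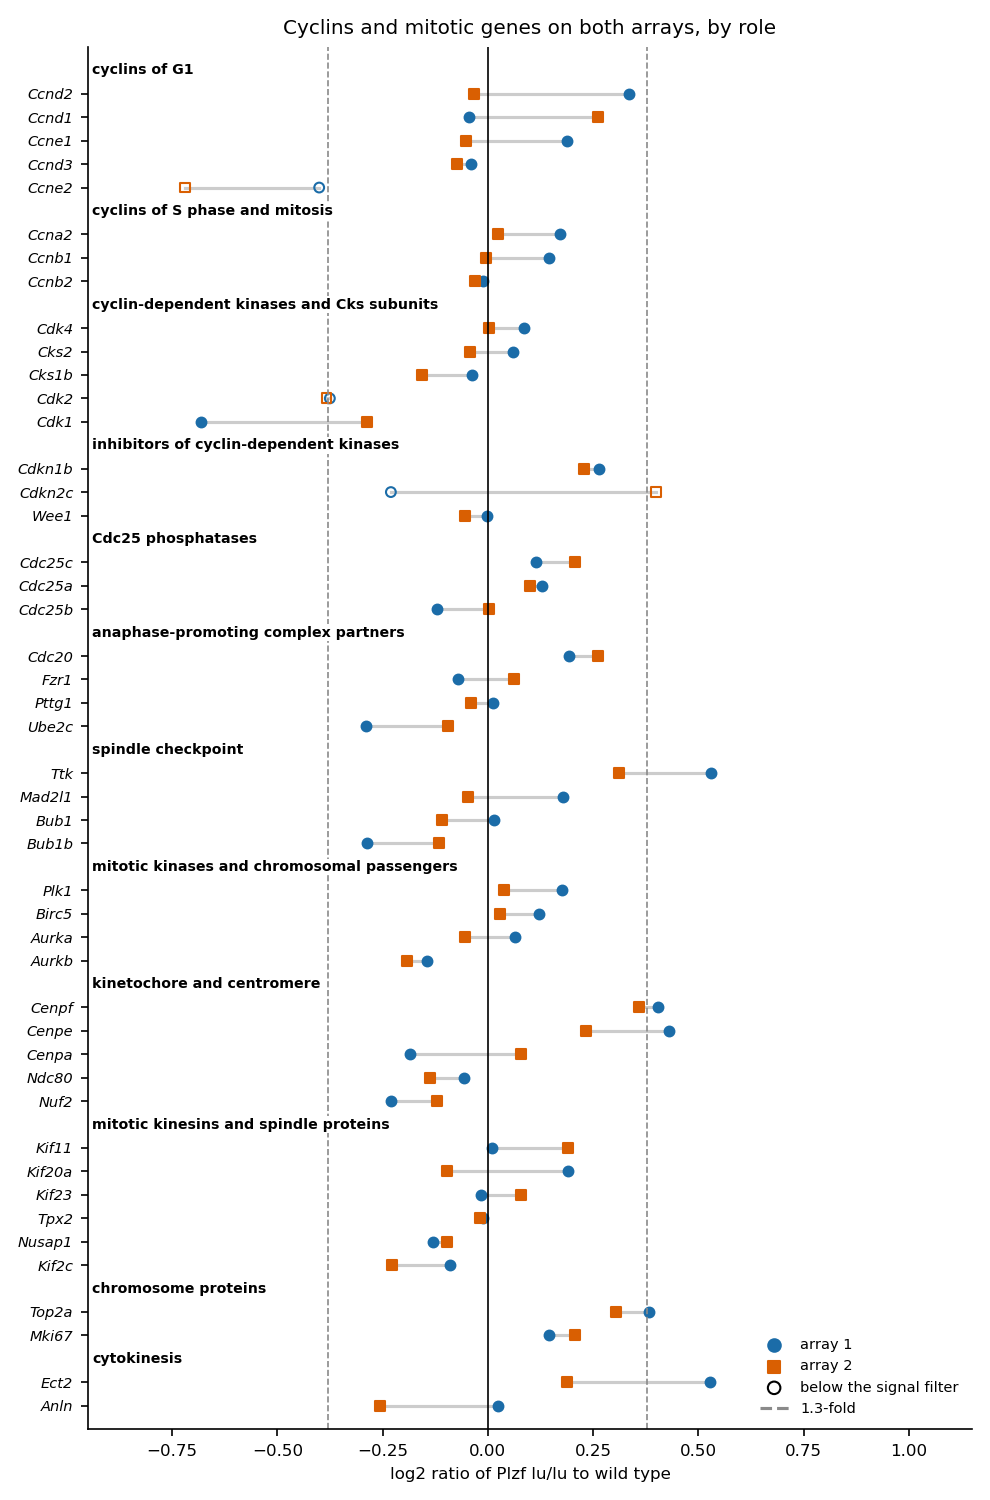
The log2 ratio (*Plzf* lu/lu over wild type) on array 1 (circles) and array 2 (squares) is plotted for each of the 46 genes, grouped by role, with hollow symbols for the 3 genes below the signal filter and dashed lines at 1.3-fold. No filled pair lies beyond a dashed line on both arrays, and 6 genes (*Ttk*, *Cenpf*, *Cenpe*, *Top2a*, *Ect2* and *Cdk1*) pass it on array 1 alone. Of the 10600 genes tested, 1406 pass 1.3-fold on 1 array only.

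Among the cyclins of G1, no gene passed the test. The D-type cyclins start the cycle by activating Cdk4 and Cdk6. *Ccnd1* had a processed signal of 5497 in wild type and 5328 in *Plzf* lu/lu on array 1, and of 4459 and 5345 on array 2. The signals of *Ccnd2* were 22833 and 28790 on array 1 and 25291 and 24734 on array 2. For *Ccnd3* they were 9825 and 9553 on array 1 and 8782 and 8352 on array 2. *Ccnd1* was thus higher in *Plzf* lu/lu on array 2 alone, *Ccnd2* on array 1 alone, and *Ccnd3* was slightly lower on both. The mean log2 ratios were 0.11 (SD 0.22, n = 2 arrays) for *Ccnd1*, 0.15 (SD 0.26) for *Ccnd2* and -0.06 (SD 0.02) for *Ccnd3*, with adjusted p from limma of 0.498, 0.394 and 0.644. With normexp background correction and centring, *Ccnd2* alone of these had an adjusted p under 0.05 (0.0342), at a mean log2 ratio of 0.43. *Ccne1*, whose product activates Cdk2 at the entry into S phase, had log2 ratios of 0.19 and -0.05. *Ccne2*, the second E-type cyclin, had signals between 22.8 and 37.6 and failed the filter, with log2 ratios of -0.40 and -0.72.

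The cyclins of S phase and mitosis had mean log2 ratios between -0.02 and 0.10. *Ccnb1*, the main mitotic cyclin, had signals of 4618 in wild type and 5109 in *Plzf* lu/lu on array 1 and of 4728 and 4710 on array 2. Its genotypes overlapped, with a mean log2 ratio of 0.07 (95% interval -0.13 to 0.27, adjusted p = 0.593 in limma). *Ccna2* was at 0.17 and 0.02 on the log2 ratio scale, and *Ccnb2*, the second B-type cyclin, at -0.01 and -0.03.

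*Cdk1*, the partner of the B-type cyclins, was probed within chr10:68805423-68807832 (mm9) and had signals of 2527 in wild type and 1576 in *Plzf* lu/lu on array 1 and of 1998 and 1638 on array 2. Both *Plzf* lu/lu values were below both wild type values. The log2 ratio was -0.68 on array 1 and -0.29 on array 2, with a mean of -0.48 (SD 0.28, 95% interval -0.76 to -0.21), an unadjusted p of 0.00559 and an adjusted p of 0.0810 in limma. Only array 1 went beyond 1.3-fold, and *Cdk1* has 1 probe on the array, so no other probe bears on the value. *Cdk2*, the kinase of the E-type and A-type cyclins, had signals of 276 and 213 on array 1 and 258 and 198 on array 2, which put it just below the filter, with log2 ratios of -0.38 on both arrays. *Cdk4*, the kinase of the D-type cyclins, was at 0.09 and 0.00. The Cks subunits, small proteins that bind these kinases, had mean log2 ratios of -0.10 for *Cks1b* and 0.01 for *Cks2*. Unlike *Cdk1*, the genes of its cyclins *Ccnb1* and *Ccnb2* had intervals that reached 0; the difference between *Cdk1* and its cyclins was not tested.

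Of the inhibitors, *Cdkn1b* encodes p27, which holds cyclin-dependent kinases inactive in cells that leave the cycle. Its signals were 895 in wild type and 1075 in *Plzf* lu/lu on array 1 and 873 and 1022 on array 2. Both *Plzf* lu/lu values were above both wild type values, with a mean log2 ratio of 0.25 (SD 0.03, 95% interval 0.06 to 0.43) and an adjusted p of 0.114 in limma. *Cdkn2c*, which encodes the Cdk4 and Cdk6 inhibitor p18, failed the filter with signals between 139 and 184, and its log2 ratios of -0.23 and 0.40 had opposite signs. *Wee1*, the kinase that holds Cdk1 inactive before mitosis, was at 0.00 and -0.05. The Cdc25 phosphatases, which remove that block, had mean log2 ratios of 0.11 for *Cdc25a*, -0.06 for *Cdc25b* and 0.16 for *Cdc25c*, and none passed the test.

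Among the partners of the anaphase-promoting complex, the activator *Cdc20* had signals of 8155 in wild type and 9316 in *Plzf* lu/lu on array 1 and of 7470 and 8958 on array 2. The genotypes did not overlap, and the mean log2 ratio was 0.23 (SD 0.05, adjusted p = 0.133 in limma). *Ube2c*, the ubiquitin-conjugating enzyme of the complex, went the other way with signals of 5830 and 4767 on array 1 and 5052 and 4734 on array 2. Its mean log2 ratio was -0.19 (SD 0.14, adjusted p = 0.209). *Fzr1* (Cdh1), the other activator, was at -0.07 and 0.06, and *Pttg1* (securin), which restrains separase, at 0.01 and -0.04.

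The spindle checkpoint delays anaphase until all chromosomes are attached, and its 4 genes had mean log2 ratios from -0.20 for *Bub1b* to 0.42 for *Ttk*. *Ttk* (Mps1), the kinase at its head, had signals of 557 in wild type and 804 in *Plzf* lu/lu on array 1 and of 595 and 738 on array 2. *Bub1b* (BubR1), part of the checkpoint complex that restrains Cdc20, had 1063 and 871 on array 1 and 933 and 861 on array 2. Neither gene's genotypes overlapped, and the directions were opposite. The mean log2 ratio was 0.42 (SD 0.15, 95% interval 0.20 to 0.64, adjusted p = 0.0700 in limma) for *Ttk* and -0.20 (SD 0.12, adjusted p = 0.186) for *Bub1b*. *Mad2l1*, which encodes the checkpoint protein Mad2, was at 0.18 and -0.05, and *Bub1*, a checkpoint kinase of the kinetochore, at 0.01 and -0.11.

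Of the mitotic kinases and chromosomal passengers, *Plk1*, which promotes mitotic entry and spindle assembly, had signals of 6189 in wild type and 6994 in *Plzf* lu/lu on array 1 and of 5881 and 6035 on array 2. Its mean log2 ratio was 0.11 (SD 0.10, adjusted p = 0.416 in limma). *Aurkb*, which corrects faulty attachments of chromosomes, had 1006 and 911 on array 1 and 944 and 827 on array 2, with a mean log2 ratio of -0.17 (SD 0.03, adjusted p = 0.212). The genotypes of *Aurkb* did not overlap, while *Plk1* in *Plzf* lu/lu on array 2 was below *Plk1* in wild type on array 1. Within each array, *Plk1* was nevertheless higher in *Plzf* lu/lu, with log2 ratios of 0.18 and 0.04. The spindle pole kinase *Aurka* and *Birc5* (survivin), a partner of Aurora B, had mean log2 ratios of 0.00 and 0.07.

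At the kinetochore, *Cenpe* and *Cenpf* were among the highest of the set. *Cenpf*, a large kinetochore and nuclear matrix protein that accumulates in G2, had signals of 2137 in wild type and 2826 in *Plzf* lu/lu on array 1 and of 2152 and 2758 on array 2. *Cenpe*, a motor that moves chromosomes to the spindle equator (probe at chr3:134936387-134936446, mm9), had 3908 and 5270 on array 1 and 4572 and 5373 on array 2. Both genes were higher in *Plzf* lu/lu on each array without overlap. The mean log2 ratio was 0.38 (SD 0.03, 95% interval 0.19 to 0.57) for *Cenpf* and 0.33 (SD 0.14, 95% interval 0.12 to 0.54, adjusted p = 0.0915 in limma) for *Cenpe*. *Nuf2*, a subunit of the Ndc80 complex that binds microtubules, had signals of 2041 and 1740 on array 1 and 2088 and 1919 on array 2. Its mean log2 ratio was -0.18 (SD 0.08, 95% interval -0.37 to 0.02, adjusted p = 0.208). *Ndc80* itself was at -0.06 and -0.14, and *Cenpa*, the histone H3 variant of centromeres, at -0.18 and 0.08.

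**Figure D2:**
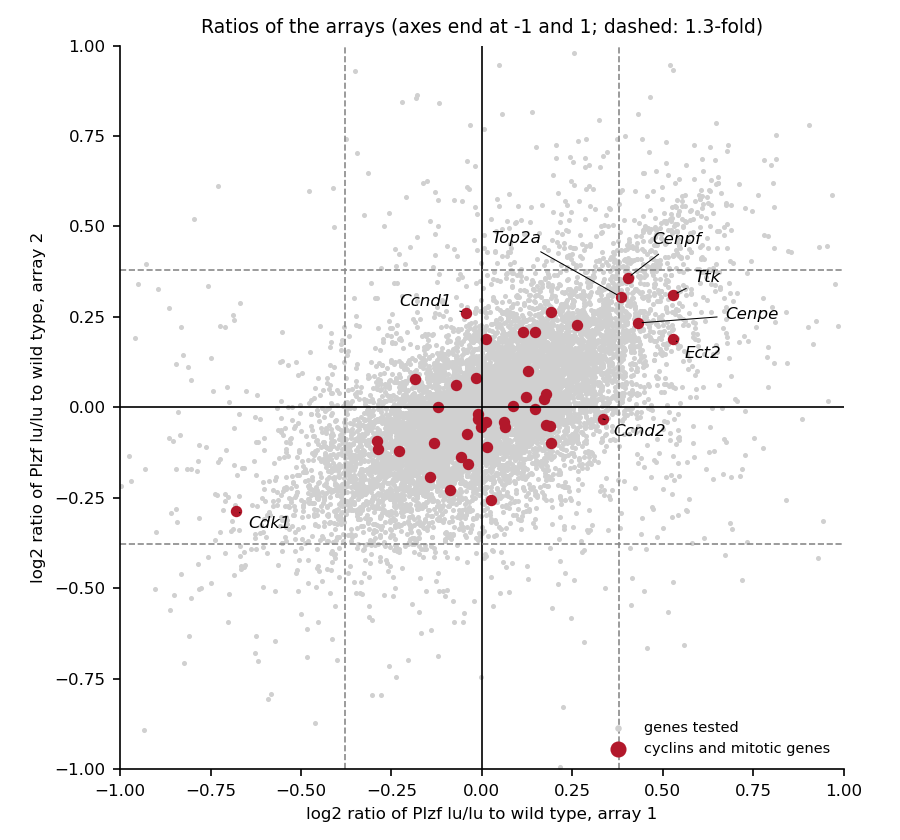
The log2 ratio (*Plzf* lu/lu over wild type) on array 2 is plotted against that on array 1 for the genes tested (grey) and the 43 cyclins and mitotic genes (red), with dashed lines at 1.3-fold, and 53 genes outside the axes are not drawn. *Ttk*, *Cenpf*, *Top2a*, *Cenpe* and *Ect2* lie at the upper right edge of the red points and *Cdk1* alone at the lower left, while *Ccnd1* and *Ccnd2* are each away from 0 on 1 array only.

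The 6 mitotic kinesins and spindle proteins had mean log2 ratios between -0.16 for *Kif2c*, which takes microtubule ends apart, and 0.10 for *Kif11*, which pushes spindle poles apart. *Kif20a* and *Kif23*, motors of the central spindle, were at 0.05 and 0.03, and the spindle assembly proteins *Nusap1* and *Tpx2* at -0.11 and -0.02. None of the 6 passed the test even at an unadjusted p under 0.05.

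*Top2a* encodes the topoisomerase that untangles sister chromosomes, and *Mki67* encodes Ki-67, a coat protein of mitotic chromosomes present throughout the cycle. *Top2a* had signals of 5443 in wild type and 7099 in *Plzf* lu/lu on array 1 and of 5115 and 6321 on array 2. For *Mki67* the signals were 6106 and 6754 on array 1 and 5546 and 6406 on array 2. Both were higher in *Plzf* lu/lu on each array without overlap. The mean log2 ratio was 0.34 (SD 0.06, 95% interval 0.16 to 0.53, adjusted p = 0.0762 in limma) for *Top2a* and 0.18 (SD 0.04, 95% interval -0.01 to 0.36, adjusted p = 0.197) for *Mki67*. Among the usual proliferation markers, the interval of *Top2a* lay above 0 and that of *Cdk1* below 0. Those of *Ccnb1*, *Plk1*, *Aurkb* and *Mki67* included 0. The intervals are not adjusted for the number of genes, and neither *Top2a* nor *Cdk1* passed at an adjusted p under 0.05. Over all genes, an unadjusted p under 0.05 in limma was reached by 15.7% higher and 12% lower. Whether the markers differ in direction was not tested.

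In cytokinesis, *Ect2*, the exchange factor that activates RhoA at the cleavage furrow, had signals of 1219 in wild type and 1756 in *Plzf* lu/lu on array 1 and of 1433 and 1632 on array 2. The genotypes did not overlap. Its mean log2 ratio was 0.36 (SD 0.24, 95% interval 0.10 to 0.61, adjusted p = 0.107 in limma), and the ratio on array 1 was the larger. *Anln* (anillin), a scaffold of the contractile ring, was at 0.03 and -0.26.

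**Figure D3:**
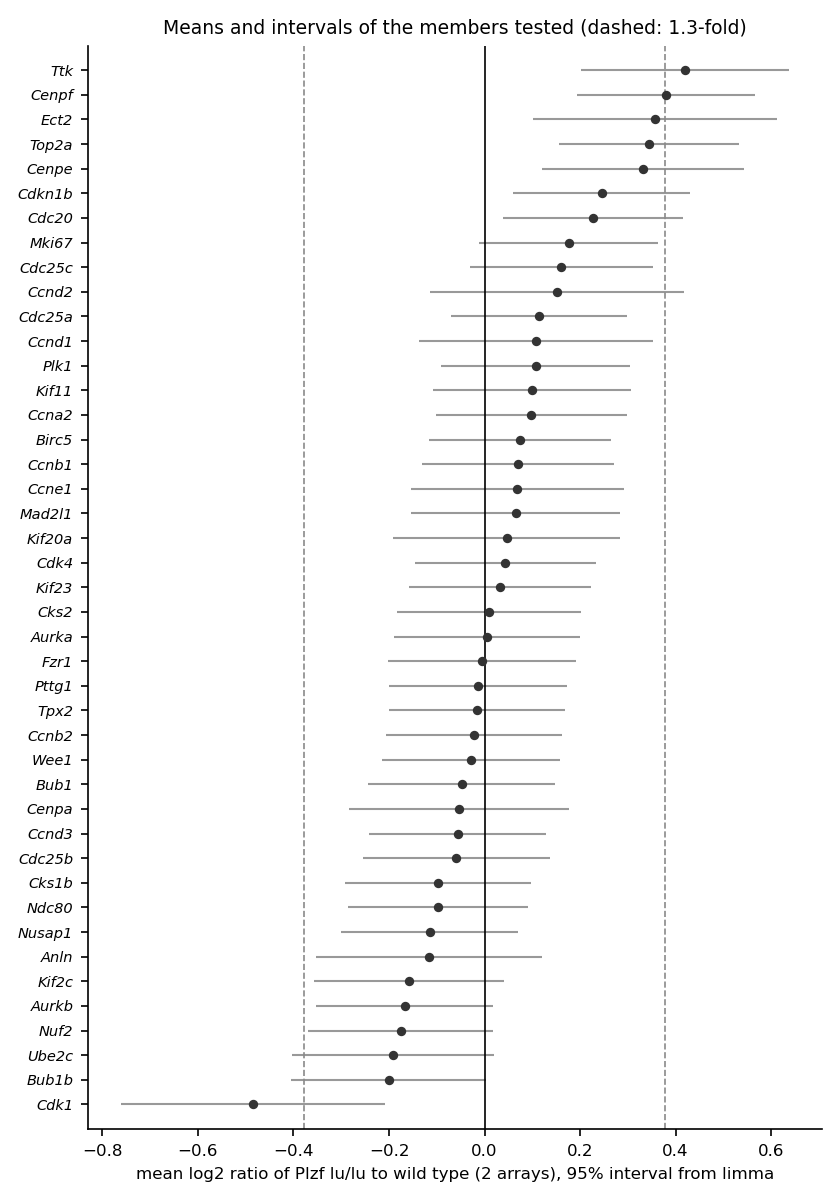
The mean log2 ratio over the 2 arrays (points) and its 95% interval from limma (bars) are plotted for the 43 genes tested, ordered by the mean, with dashed lines at 1.3-fold. The bars of 35 genes include 0, those of 7 lie above it (*Cdc20* to *Ttk*) and that of *Cdk1* lies below it.

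Several of the highest genes carried more than 1 probe, and these did not give the same value. The 46 genes had 87 probes on the array, with 19 genes on 1 probe. Beside the brightest probe, 25 probes of 18 genes passed the signal filter. Of these, 16 had the sign of the brightest probe and 19 had a lower ratio, with a median difference of -0.10 on the log2 scale. Across all genes with several probes the shares were like these, with 54.8% of other probes on the same sign and 70.2% lower, against 64% and 76% here. In 13 of the 18 genes the brightest probe was also the one nearest the 3′ end of the gene among those that passed. The share over all genes was not computed, so this count cannot be read as a trait of the set.

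For *Ttk*, the brightest probe (chr9:83765807-83765866, mm9) had the mean log2 ratio of 0.42, while a probe upstream (chr9:83757059-83757118) read 238 in wild type and 223 in *Plzf* lu/lu on array 1 and 242 and 206 on array 2, a mean of -0.16. For *Ect2*, the second probe (chr3:26997288-26997347) read 215 and 217 on array 1 and 224 and 205 on array 2, a mean of -0.06 against 0.36. For *Cenpf*, the second probe (chr1:191507765-191507824) read 627 and 625 on array 1 and 571 and 641 on array 2, a mean of 0.08 against 0.38. The second probe of *Top2a* that passed (chr11:98855522-98855581) read 2280 and 2517 on array 1 and 2092 and 2272 on array 2, a mean of 0.13 against 0.34. Among probes that passed, another probe of *Cenpf* and of *Top2a* thus gave a smaller positive ratio than the brightest one. Another probe of *Ttk* and of *Ect2* gave a ratio below 0. Further probes of *Top2a* and *Ttk* were well above background but did not pass the filter. Their means were -0.02 and 0.02 for *Top2a* and -0.09 and 0.06 for *Ttk*. *Cenpe* and *Cdk1* have 1 probe each.

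Opposite signs also occurred among genes with small changes. In all, 9 of the 25 probes, in 8 genes, had the opposite sign to the brightest probe. For *Birc5* the brightest probe had a mean log2 ratio of 0.07 and another, annotated to a different transcript, -0.35. *Mad2l1* had 0.07 and -0.31. The 4 probes of *Cdk4* had 0.04, -0.14, 0.01 and -0.32, and the 3 of *Ccnd2* had 0.15, 0.30 and -0.03. *Ccnb1* had 0.07 at the brightest probe and -0.08, 0.10 and 0.15 at the others, and *Kif23* had 0.03 and a value just below 0. *Aurkb* was lower at both of its probes, with -0.17 and -0.39. For *Cdc20* both probes were above 0, with 0.23 and 0.08.

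Ratios were also related to the GC content of the probe. Across all genes tested, the Spearman correlation of the mean log2 ratio with probe GC was -0.33, and across the 43 genes it was -0.21 (-0.33 on array 1 and -0.01 on array 2), where the points share the same 2 arrays. The median probe GC was 41.7% both for the 43 genes and for all genes. Of the 25 other probes, 17 had a higher GC content than the brightest one, and 15 of these had a lower ratio. With the GC trend over all genes removed, the mean log2 ratio was 0.34 for *Ttk*, 0.34 for *Cenpf*, 0.27 for *Ect2*, 0.36 for *Top2a*, 0.36 for *Cenpe* and -0.53 for *Cdk1*, and the median of the 43 genes was 0.0074.

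**Figure D4:**
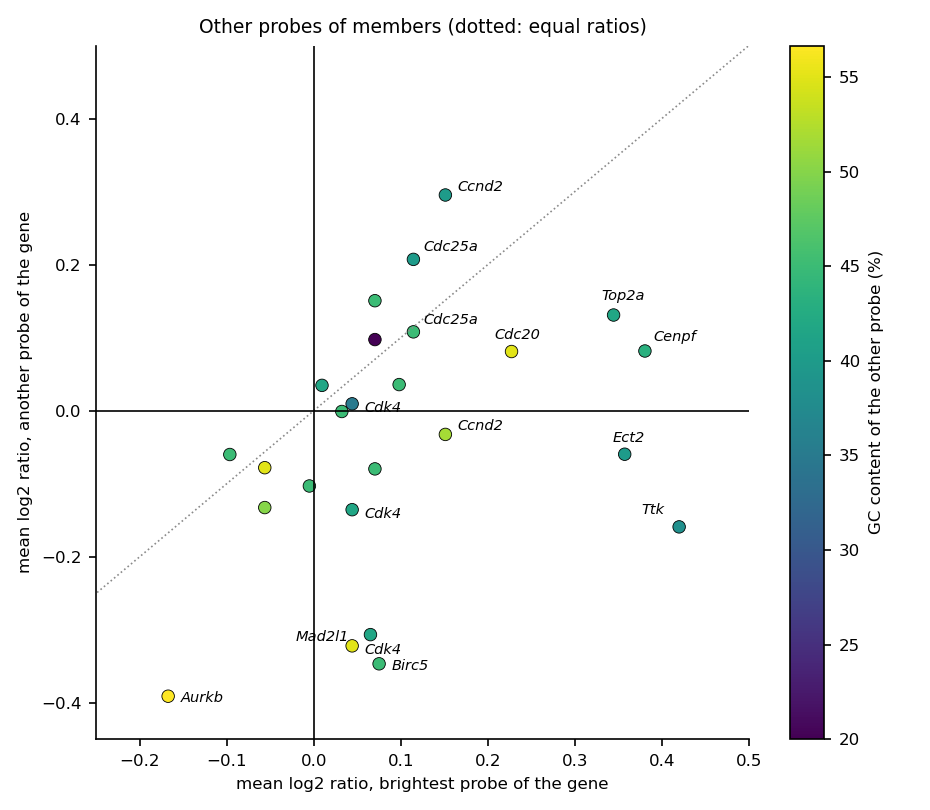
The mean log2 ratio of each other probe that passed the signal filter (25 probes of 18 genes) is plotted against that of the brightest probe of the same gene, coloured by the GC content of the other probe, with a dotted line where both are equal. Most points lie below the dotted line, and the other probes of *Ttk* and *Ect2* lie below 0.

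Many mitotic genes share 2 promoter elements that the choice of genes did not use. The CHR element (TTTGAA or TTCGAA) binds the DREAM complex, which represses these genes in resting and G1 cells, and the CCAAT box (CCAAT) binds the activator NF-Y. RefSeq promoter windows of GRCm38.p6, from 250 bases before to 50 bases after the transcription start, matched 37 of the 46 genes. For each motif, a gene was counted when any of its windows held it. Over the table, which covers 27025 gene symbols, each promoter was counted singly, so the shares are not strictly alike. On either strand, 21 of the 37 (56.8%) held a CHR element and 27 (73.0%) a CCAAT box, against 19.2% and 37.4% of the 32851 promoters in the table. A short E2F motif (TTCCCGC and the variants of it that have GGC, CGC or GCC in place of the central CCC), whose letters can overlap a CCAAT box, was in 7 (18.9%), against 9.57% of promoters. The median log2 ratio was -0.022 for the 21 genes tested with a CHR element and 0.054 for the 14 without one. The CCAAT box went the other way, with 0.032 for 25 genes with it and -0.056 for 10 without. So did the E2F motif, with 0.114 for 5 genes with it and -0.00034 for 30 without. These splits were not tested. Genes with a CHR element covered the whole range, from -0.48 for *Cdk1* to 0.42 for *Ttk*. The windows of these genes and of *Cenpf* and *Top2a* are shown, from 150 bases before to 20 bases after the start. Each of the genes shown carries both elements. Not all genes at the ends of the range do. Of *Ttk*, *Cenpf*, *Ect2*, *Top2a* and *Cenpe*, only *Cenpe* had no CHR element. Among the lowest, *Bub1b* and *Ube2c* held both elements and *Nuf2* held neither. The windows are chr10:69352893-69353062 for *Cdk1*, chr9:83834539-83834708 for *Ttk*, chr1:189688067-189688236 for *Cenpf* and chr11:99024170-99024339 for *Top2a*. *Ttk* is on the plus strand and the others on the minus strand, each sequence runs 5′ to 3′ along its gene, and capitals mark CHR elements and CCAAT boxes on either strand (on the other strand these read TTCAAA and ATTGG).
Cdk1: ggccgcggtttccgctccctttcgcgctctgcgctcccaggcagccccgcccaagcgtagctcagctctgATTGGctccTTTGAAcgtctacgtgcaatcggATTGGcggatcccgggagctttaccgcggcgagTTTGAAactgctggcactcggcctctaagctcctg
Ttk: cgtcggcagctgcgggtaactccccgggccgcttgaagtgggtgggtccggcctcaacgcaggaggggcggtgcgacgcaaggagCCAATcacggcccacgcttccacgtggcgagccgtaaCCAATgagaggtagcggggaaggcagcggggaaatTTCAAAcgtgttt
Cenpf: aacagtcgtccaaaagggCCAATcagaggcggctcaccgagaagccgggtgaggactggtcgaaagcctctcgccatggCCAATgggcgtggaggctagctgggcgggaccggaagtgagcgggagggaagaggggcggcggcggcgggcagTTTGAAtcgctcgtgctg
Top2a: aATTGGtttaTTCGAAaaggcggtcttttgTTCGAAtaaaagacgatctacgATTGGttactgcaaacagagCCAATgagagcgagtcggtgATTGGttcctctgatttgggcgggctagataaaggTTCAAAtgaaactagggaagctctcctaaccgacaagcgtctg
A match of letters is a description and not a measured binding site. *Cdk1* showed 2 CHR elements and 2 CCAAT boxes in this window, *Ttk* and *Cenpf* 1 and 2, and *Top2a* 3 and 4.

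The rest of the cell cycle machinery was read from lists of 114 further genes, of which 95 were tested. Beyond 1.3-fold on both arrays, 0 were higher and 1 was lower, against 2.58% and 0.736% of all genes. The lower gene was *Ube2s*, the enzyme that extends ubiquitin chains with the anaphase-promoting complex and so works after *Ube2c*. *Ube2s* had log2 ratios of -0.62 and -0.39 and an adjusted p of 0.0574 in limma. At an unadjusted p under 0.05, 21 of the 95 were higher and 11 lower, against 15.7% and 12% of all genes, and none passed at an adjusted p under 0.05. The median log2 ratio was 0.09 on array 1 and 0.02 on array 2.

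By list, the G1 regulators and E2F pathway ran from *E2f5* (-0.23 and -0.25), an E2F factor, to *Skp2* (0.60 and 0.34), which marks p27 for degradation. The regulators of mitotic transcription ran from *Lin37* (-0.27 and -0.12), a subunit of DREAM, to *Mycn* (0.47 and 0.37), a Myc factor of neural progenitors. *Foxm1*, an activator of mitotic genes, was at 0.35 and 0.10, and *Mybl2* (B-Myb) at -0.08 and 0.05. Other genes of mitotic kinases and phosphatase control ran from *Arpp19* (-0.33 and -0.39), an inhibitor of the phosphatase PP2A, to *Ccnf* (0.36 and 0.24), an F-box cyclin. The kinases among them, *Plk4*, *Pbk*, *Melk*, *Pkmyt1* and *Nek2*, had mean log2 ratios from -0.063 for *Plk4* to 0.075 for *Nek2*. Above *Ube2s*, the complex itself reached 0.44 and 0.14 for its scaffold subunit *Anapc1*. Checkpoint and kinetochore proteins ran from *Spc24* (-0.43 and -0.37), which with *Nuf2* belongs to the Ndc80 complex, to *Cdca8* (0.35 and 0.33), which encodes the passenger protein borealin. The other kinesins and spindle proteins ran from *Hmmr* (-0.41 and -0.20), a hyaluronan receptor that also acts at the spindle, to *Ckap5* (0.38 and 0.24), a microtubule polymerase. Condensin and cohesion genes, which fold and hold sister chromosomes as *Top2a* untangles them, were positive on both arrays for 7 of 12 tested, negative on both for 0 and of mixed sign for 5, with medians of 0.28 and 0.11, against 37.3% positive and 35.4% negative on both arrays over all genes. Whether this list differs from other genes was not tested. The highest of them was *Ncapg2* (0.49 and 0.31), a condensin subunit.

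**Figure D5:**
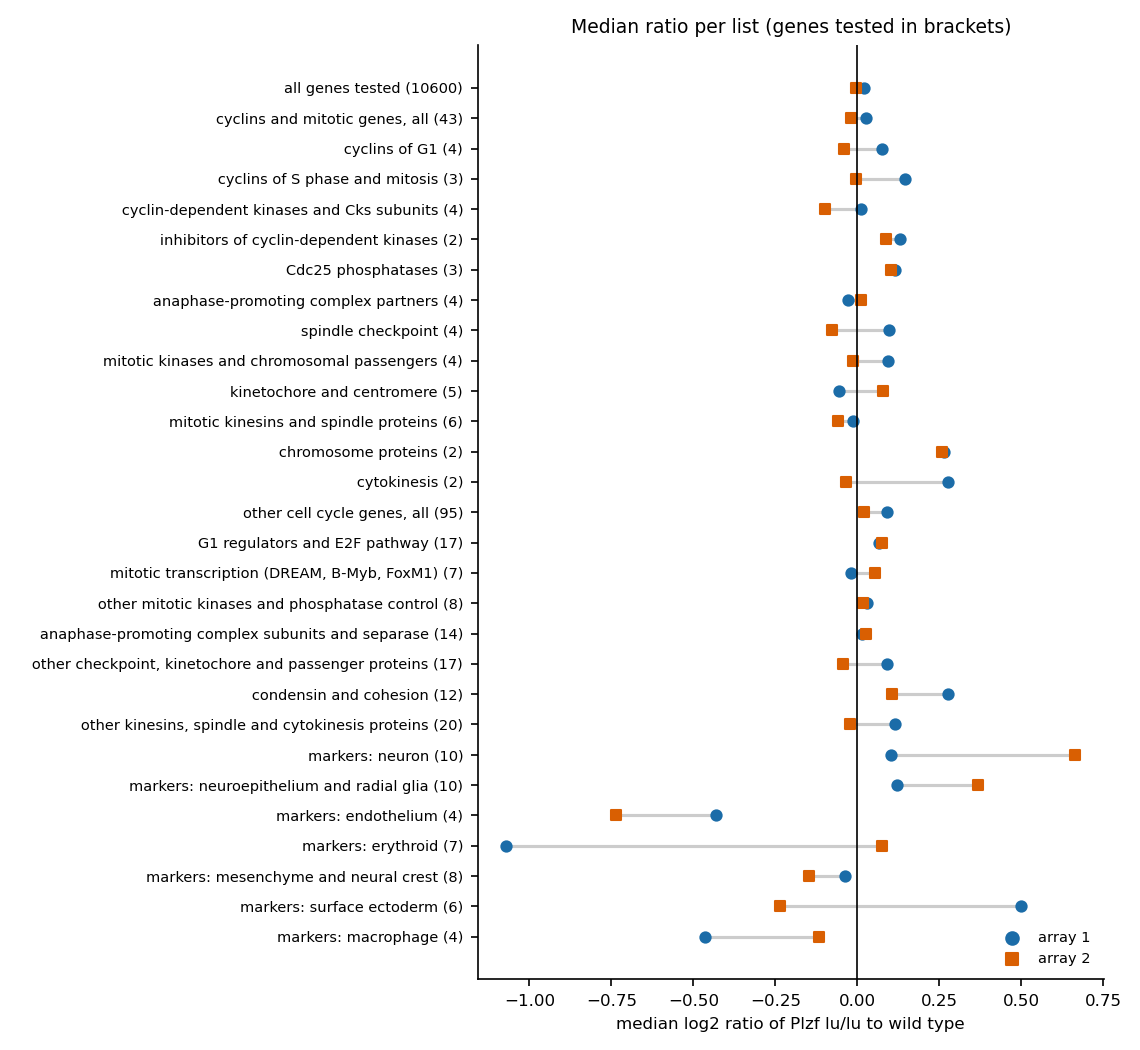
The median log2 ratio (*Plzf* lu/lu over wild type) on array 1 (circles) and array 2 (squares) is plotted for all genes tested, for the cyclins and mitotic genes and the other cell cycle genes by role, and for marker lists of cell types, with the number of genes tested in brackets. The medians of all 43 cyclins and mitotic genes lie near 0 on both arrays, at 0.025 and -0.020, whereas several marker lists lie farther out and differ between the arrays, such as the erythroid markers at -1.07 and 0.08.

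Several marker lists of cell types had medians farther from 0 than the cyclins and mitotic genes, a difference that was not tested. Neuron markers (10 of 12 tested) had medians of 0.10 and 0.66 on arrays 1 and 2, and their summed signal was 9310 and 8485 in wild type and 9683 and 13037 in *Plzf* lu/lu. Neuroepithelium and radial glia markers (10 of 12 tested) had medians of 0.12 and 0.37, and their sums were 40708 and 38215 in wild type and 39546 and 48958 in *Plzf* lu/lu. Endothelial markers (4 of 10 tested) had medians of -0.43 and -0.74 and were negative on both arrays for the 4 tested, against 35.4% of all genes, with sums of 5499 and 6121 in wild type and 4581 and 4265 in *Plzf* lu/lu. Erythroid markers (7 of 10 tested) had medians of -1.07 and 0.08, with sums of 470295 and 195167 in wild type and 251754 and 238254 in *Plzf* lu/lu. The summed signal of the 46 genes was 192079 and 192571 in wild type and 206975 and 195708 in *Plzf* lu/lu. The erythroid median in wild type was 1.59 higher on array 1 than on array 2 on the log2 scale, against 0.04 for the cyclins and mitotic genes. The wild type sample of array 1 thus stood apart in erythroid markers. Array 1 is also the array on which *Ttk*, *Cenpf*, *Cenpe*, *Top2a*, *Ect2* and *Cdk1* went beyond 1.3-fold, and a link between these was not tested. Of the 10600 genes tested, 1406 went beyond 1.3-fold on 1 array only. Array 1 had 875 genes higher and 592 lower by more than 1.3-fold, and array 2 had 477 and 208. Surface ectoderm markers (6 of 8 tested) had medians of 0.50 and -0.24, macrophage markers (4 of 6 tested) of -0.47 and -0.12, and mesenchyme and neural crest markers (8 of 10 tested) of -0.04 and -0.15. Every marker of each list had a signal well above background in both channels of both arrays. The part of these cell types in the ratios of the cyclins and mitotic genes was not tested.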

How the data were processed

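Forebrain and midbrain RNA of wild type (Cy3) and *Plzf* lu/lu (Cy5) E10.5 embryos was hybridized to 2 two-colour arrays lying on 1 slide. The authors processed the scans with Feature Extraction 10.7.3.1, with background subtraction and a rank-consistency LOWESS normalization of the dyes inside each array, and no normalization between the arrays. The deposited scanner output gives the intensity of each spot, that of its background and a log10 ratio (Cy5 over Cy3). The deposited value table, which holds the log2 ratios in rounded form, was used as an alternative. Every column was assigned from the labels. Control and outlier spots were left out, and repeated spots were averaged per probe as log2 values. Probe positions are in mm9, as annotated on the arrays. With 2 arrays, the log2 ratios of 10600 genes were fitted in limma 3.58.1 (R 4.3.3, data.table version 1.17.8; intercept, eBayes, two-sided, Benjamini-Hochberg over all genes tested). A gene then has 1 residual degree of freedom, so its p rests on the variance pooled over genes, and the number of arrays limits the precision. The fit was also run on simulated data with independent genes and no dye or probe effect. The changes put in were larger than any mean change of the cyclins and mitotic genes, so the run does not bear on changes of that size. Promoters and figures used Python 3.11.15, numpy 2.4.6, pandas 2.3.3 and matplotlib 3.10.9. The genes described in full are the D-type cyclins, *Cdkn1b*, *Cdkn2c*, the usual proliferation markers, the 5 highest and 5 lowest genes tested, the genes below the filter and those whose probes differ in sign, with *Zbtb16* as a check. The genes, roles and marker lists were chosen with earlier results of these data known. Alternatives are given in the closing section.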

Additional observations from a re-analysis of the deposited data

How the results depend on the processing

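The number of cyclins and mitotic genes beyond 1.3-fold on both arrays stayed at 0 in each direction with the deposited log2 table, the filter passed in 1 channel of each array, all probes of a gene averaged, the GC trend removed, the arrays centred, and a threshold of 1.5-fold. It became 1 higher (*Cenpf*) with normexp (offset 50) followed by loess or by centring on the genes tested. Of the 10600 genes, 285 and 455 were higher in these settings. It became 1 lower (*Ccne2*, a dim gene) with the spots well above background and with no filter. Of all genes, 481 of 23283 and 2173 of 37071 were lower in these settings. By the mean of the 2 arrays it became 2 higher (*Cenpf* and *Ttk*) and 1 lower (*Cdk1*), against 498 and 245 of 10600 genes. Array 1 alone, without replicate 2, gave 5 higher and 1 lower, against 875 and 592 of 10600 genes. Array 2 alone, without replicate 1, gave 0 and 0, against 477 and 208.

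At an adjusted p under 0.05 in limma, 0 of the 43 genes (8 at an unadjusted p) became 6 (*Ccnd2*, *Cdk1*, *Cdc20*, *Ttk*, *Cenpf* and *Top2a*, with adjusted p from 0.0202 to 0.0432) with normexp and centring, where 1514 of all genes were called, 2 (*Ttk* and *Cenpf*) with the arrays centred, where 600 were called, and 2 with eBayes with trend, where 393 were called. It stayed at 0 in treat against 1.3-fold and in the other alternatives that gave a test, and each array alone gives none. In treat, normexp with loess, the deposited table, spots well above background, no filter and averaged probes, 0 of all genes were called. The count for the 43 genes could only be 0 there, so it does not bear on stability. With the filter in 1 channel of each array 2 of all genes were called, and with the GC trend removed 1. With the pairing of channels by array dropped (no replicate block), 0 of all genes were called. Of the 43 genes, 8 then had an unadjusted p under 0.05 in limma, and the lowest adjusted p was 0.0632. The medians that centring removed were 0.020 on array 1 and -0.0047 on array 2.

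The median log2 ratio of the genes tested moved from 0.032 to 0.070 with normexp and centring, and lay between -0.020 (without replicate 1) and 0.025 (without replicate 2) for a single array. Under the alternatives that used both arrays, 31 of the 43 genes kept their sign wherever they were tested. The other 12 (*Ccnd3*, *Ccnb1*, *Ccnb2*, *Cdk4*, *Fzr1*, *Pttg1*, *Mad2l1*, *Aurka*, *Birc5*, *Cenpa*, *Kif23* and *Tpx2*) had mean log2 ratios within 0.075 of 0. The average over all probes left 33 genes above the signal filter, without *Ttk* and *Ect2*, so their sign was not checked in it. Averaged over its probes, *Top2a* was at 0.12, and *Cenpf* at 0.23. The cause of these differences was not tested.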
